A study of Mus musculus with 12 samples.

Results

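The fatty acid oxidation and TCA cycle enzymes described here are 41 nuclear genes, taken by gene symbol from a count table of 36512 genes. All 41 were found in the table, and 40 had enough counts to be tested. The exception was Cpt1b. Newborn CD-1 mice gave the tissue at postnatal day 3, with both sexes mixed: the aorta together with the fat around it, from which cells were dissociated and sorted before their poly(A) RNA was sequenced. Sample titles give 4 populations, which are preadipocyte, progenitor, smooth muscle and intermediate cells, and 12 libraries, 3 for each. No treatment or allele is named for any of them, and every population comes from the same tissue, strain and age. Which surface markers defined the gates, and whether replicates are different pools of pups, is not stated in the labels. The p-values therefore cover only the spread among these libraries, which may be technical.

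Fatty acids are activated to acyl-CoA, carried into the mitochondrion as acylcarnitine and shortened by a repeated round of dehydrogenation, hydration, a further dehydrogenation and thiolysis, each round releasing acetyl-CoA. The TCA cycle oxidises that acetyl-CoA, together with the acetyl-CoA that the pyruvate dehydrogenase complex makes from pyruvate, and hands the electrons to the respiratory chain. Perivascular fat around the rodent thoracic aorta resembles brown fat, a tissue known for dense mitochondria and for burning fatty acids to make heat.

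Libraries held 11701825 to 17123109 counts. Levels are CPM, counts relative to the library's total, after TMM scaling, a method that sets libraries on a common scale from the genes that differ least, and values per library run from replicate 1 to replicate 3. Of the 4 labelled populations, 3 were set beside a marker, and no marker was set for the intermediate cells. The marker read for preadipocytes is a fat cell marker and does not define preadipocytes. Pi16, a marker of adventitial progenitors, was at 834, 965 and 717 CPM in progenitor libraries and at 7.03 to 109.7 in the others. Adipoq, the adipokine of fat cells, was at 915, 1249.5 and 695 CPM in preadipocyte libraries and at 0.700 to 74.9 in the others. Myh11, the smooth muscle myosin, was at 1288, 1212 and 894 CPM in smooth muscle libraries and at 1.71 to 146 in the others. Haemoglobin and other red blood cell markers stood out in preadipocyte replicate 3, where 6 genes summed to 16225 CPM, against 989 and 1244 in preadipocyte replicates 1 and 2 and 2.18 to 295 in the other populations. Of 21285 genes tested, 16988 (79.8%) showed some difference among populations in edgeR's quasi-likelihood test, with adjusted p under 0.05. Here and below, adjusted p-values are edgeR's, two-sided, with Benjamini-Hochberg adjustment over all genes tested, and a gene is called higher or lower at that threshold. How smooth muscle libraries stand against progenitor and intermediate libraries is given after TMM scaling and changes with library size alone, as described with those comparisons.

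All 40 tested enzymes differed among the 4 populations, against that background of 79.8%. In preadipocyte against progenitor libraries 39 were higher and 1, Cpt1a, was lower, where 25.1% of all genes tested were higher and 25.9% lower. Their median log2 fold change was 1.85, beside 0.04 over all genes tested. Of the 39, 36 were at least 2-fold and 13 at least 4-fold higher. The same counts, 39 higher and 1 lower, were found for preadipocyte against intermediate libraries, with a median of 2.46, and against smooth muscle libraries, with a median of 2.36. All genes tested had medians of -0.24 and -0.35 in those comparisons, with 26.0% and 25.9% higher and 31.1% and 40.7% lower. These 3 comparisons share the preadipocyte libraries. The groups did not overlap: for each of the 39 enzymes the lowest preadipocyte library lay above all 9 other libraries, and for Cpt1a the highest preadipocyte library lay below all 9. Of the 21285 genes tested, 3833 lay above and 3293 below in the same way. In bulk RNA of sorted cells, fewer cells of a type and less RNA per cell cannot be told apart.

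**Figure D1:**
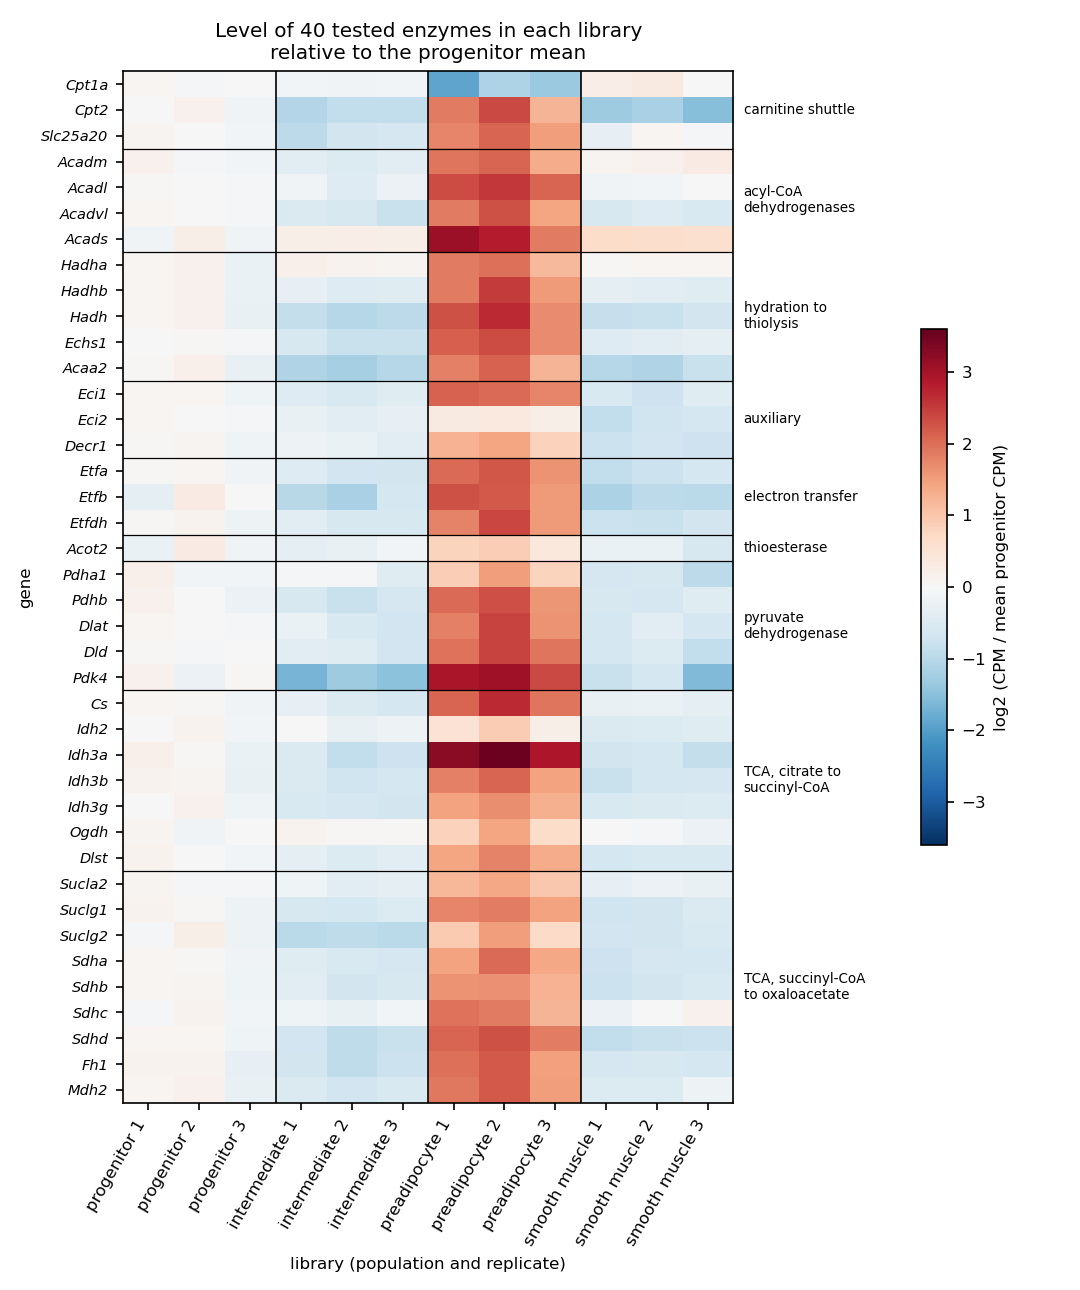
Level of each of the 40 tested enzymes (rows, grouped by role) in each of the 12 libraries (columns), as log2 of its CPM over the mean progenitor CPM; red is above and blue below that mean. The preadipocyte columns are red for every enzyme but Cpt1a, and replicate 2 is the deepest red for most. The colours of the smooth muscle columns depend on the scaling. With library size alone 7 enzymes were higher and 5 lower than in progenitor libraries, where 9683 and 2015 of 21285 genes tested were.

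Summed over the 41 genes, the level was 14877, 18815 and 11889 CPM in the preadipocyte libraries. It was 4168 to 4788 CPM in progenitor, 3212 to 3569 in intermediate and 3221 to 3342 in smooth muscle libraries. Preadipocyte replicates kept nearly the same order from gene to gene: 36 of the 40 were highest in replicate 2 and 39 were lowest in replicate 3 of that population, where 37.1% and 40.1% of all genes tested were. Fat cell markers, 8 genes summed, had the same order at 4320, 4911 and 3025 CPM, against 264 to 350 CPM in progenitor, 79.0 to 90.4 in intermediate and 53.4 to 65.5 in smooth muscle libraries. Heart muscle markers, 7 genes summed, had it too, at 175, 292 and 130.0 CPM, against 12.1 to 27.5 in progenitor, 26.3 to 62.5 in intermediate and 85.6 to 101.8 in smooth muscle libraries. All 7 heart markers were higher in preadipocyte than in progenitor libraries and none was at 0. The order was not particular to these markers, as 17 genes of glycolysis summed to 6417, 8338 and 5696 CPM. Brown fat cell markers, 7 genes summed, did not have it, at 296, 292 and 186 CPM. Nor did 13 genes of the mitochondrial genome, at 18710, 18101 and 21630 CPM. Endothelial markers, 6 genes summed, were at 44.2 to 166 CPM in preadipocyte libraries, against 17.5 to 21.8 in progenitor, 45.9 to 149 in intermediate and 69.4 to 160.4 in smooth muscle libraries. The part of these cells in the enzymes' levels was not tested. Without preadipocyte replicate 3, the library high in red blood cell markers, the counts against progenitor stayed at 39 higher and 1 lower, with a median of 2.04.

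The steps of entry into the mitochondrion differed in direction. Cpt1a, which makes acylcarnitine at the outer membrane and is held back by malonyl-CoA, was at 43.8, 75.9 and 65.0 CPM in preadipocyte libraries, 171, 155 and 162 in progenitor, 153, 149 and 151 in intermediate and 193, 203 and 162 in smooth muscle libraries. Every preadipocyte library was below every other library, smooth muscle and progenitor libraries overlapped after TMM scaling, and intermediate libraries lay just below progenitor. The log2 fold change was -1.40 (SE 0.166) against progenitor, with an edgeR adjusted p of 3.43e-06, and -1.29 and -1.60 against intermediate and smooth muscle. Cpt2, which turns acylcarnitine back into acyl-CoA at the inner membrane, was at 168, 239 and 107 CPM in preadipocyte libraries, 45.6, 51.4 and 42.3 in progenitor, 22.4, 25.2 and 25.1 in intermediate and 19.01, 20.6 and 16.0 in smooth muscle libraries. Slc25a20, the translocase that swaps acylcarnitine for carnitine between both enzymes, was at 81.7, 102 and 68.4 CPM in preadipocyte libraries, 25.7, 23.9 and 22.5 in progenitor, 12.5, 15.2 and 15.7 in intermediate and 19.6, 25.3 and 23.0 in smooth muscle libraries. For Cpt2 no population overlapped another after TMM scaling, and for Slc25a20 the intermediate libraries were the lowest while progenitor and smooth muscle overlapped. Both were higher in preadipocyte than in progenitor libraries, by 1.89 (SE 0.218) and 1.80 (SE 0.164) on the log2 scale, with edgeR adjusted p of 2.6e-06 and 1.99e-07.

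The other genes of the Cpt1 family had few counts or were lower as well. Cpt1b, the isoform of heart, skeletal muscle and brown fat, had 0 to 9 counts per library and 25 over all 12. In CPM it was 0.486, 0.363 and 0.111 in preadipocyte libraries, 0.178, 0.0752 and 0.182 in intermediate libraries and at most 0.0776 in the others. A limit of 3 counts lies at 0.175 to 0.256 CPM by library size, and preadipocyte replicates 1 and 2 were above it. Exons of Cpt1b overlap those of Gm44502 on the same strand over 81.4% of their bases, and how reads in shared exons were counted is not given in the sources used here, so its low counts may not measure its RNA. Cpt1c, the isoform known from neurons and not among the 41, was at 9.93, 8.88 and 8.97 CPM in preadipocyte libraries, 45.5, 40.5 and 40.4 in progenitor, 43.1, 39.1 and 36.0 in intermediate and 28.5, 28.0 and 29.5 in smooth muscle libraries. It was also lowest in the preadipocyte libraries, with a log2 fold change of -2.18 (SE 0.133) against progenitor and an edgeR adjusted p of 3.07e-09. Summed as counted, with Cpt1b uncertain as above, the 3 genes were at 71.1 ± 15.7 CPM in preadipocyte libraries (SD, n = 3), 205 ± 10.7 in progenitor, 190.4 ± 5.004 in intermediate and 215 ± 20.5 in smooth muscle libraries. That sum includes Cpt1c and is not a measure of the outer membrane step. The ratio of Cpt1b to Cpt1a counts, planned beside those given below, is not read, since Cpt1b had 0 to 2 counts in each of the other 9 libraries. Acsl1, which activates long-chain fatty acids just before the step of Cpt1a, is not among the 41 either. It differed in the other direction, from 43.0 ± 6.47 CPM in progenitor to 606 ± 251 in preadipocyte libraries.

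**Figure D2:**
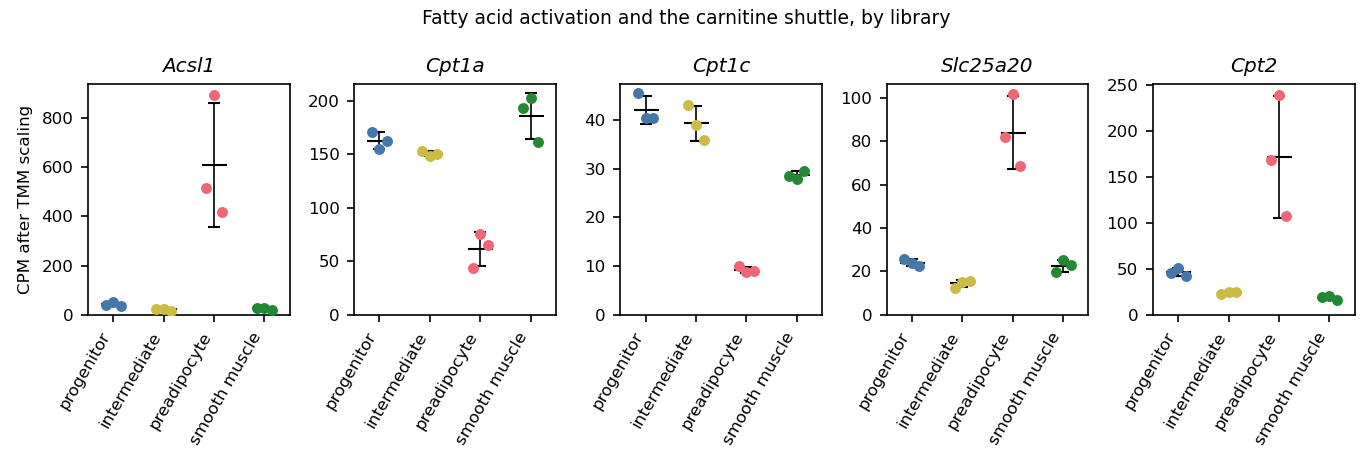
CPM after TMM scaling (linear axis from 0) of Acsl1, Cpt1a, Cpt1c, Slc25a20 and Cpt2 in each library, with the mean and SD of 3 libraries as bars. Acsl1, Slc25a20 and Cpt2 are highest in preadipocyte libraries, while Cpt1a and Cpt1c are lowest there.

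Promoters were read for the enzymes that the results turn on, to set the sequence of Cpt1a, the gene that was lower, beside 3 that were higher: Cpt2 and Acadm, enzymes of the same pathway, and Sdhd, a subunit of succinate dehydrogenase. Each runs 5′ to 3′ on the strand of its gene, from 250 bases before to 50 bases after the start, in RefSeq on GRCm38.p6. Capitals mark a motif match on either strand. The windows are chr19:3323051-3323350 (plus strand) for Cpt1a, chr4:107923540-107923839 (minus strand) for Cpt2, chr3:153944594-153944893 (minus strand) for Acadm and chr9:50603800-50604099 (minus strand) for Sdhd.
Cpt1a: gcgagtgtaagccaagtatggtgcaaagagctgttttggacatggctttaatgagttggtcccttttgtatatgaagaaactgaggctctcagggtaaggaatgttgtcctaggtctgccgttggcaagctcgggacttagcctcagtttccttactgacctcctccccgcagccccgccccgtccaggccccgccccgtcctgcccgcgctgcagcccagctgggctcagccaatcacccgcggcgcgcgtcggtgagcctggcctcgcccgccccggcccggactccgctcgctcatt
Cpt2: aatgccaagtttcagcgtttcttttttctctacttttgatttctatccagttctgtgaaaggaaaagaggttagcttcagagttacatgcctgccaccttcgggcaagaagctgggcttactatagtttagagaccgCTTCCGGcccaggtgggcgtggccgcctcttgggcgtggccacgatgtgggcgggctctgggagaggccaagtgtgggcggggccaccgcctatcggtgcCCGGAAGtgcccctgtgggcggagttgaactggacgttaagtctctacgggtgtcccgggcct
Acadm: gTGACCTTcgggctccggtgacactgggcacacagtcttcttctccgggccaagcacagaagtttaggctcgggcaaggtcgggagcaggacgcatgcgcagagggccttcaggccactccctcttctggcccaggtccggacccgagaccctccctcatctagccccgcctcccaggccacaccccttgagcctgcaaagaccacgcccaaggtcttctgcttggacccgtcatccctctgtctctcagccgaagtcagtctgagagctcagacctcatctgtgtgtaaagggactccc
Sdhd: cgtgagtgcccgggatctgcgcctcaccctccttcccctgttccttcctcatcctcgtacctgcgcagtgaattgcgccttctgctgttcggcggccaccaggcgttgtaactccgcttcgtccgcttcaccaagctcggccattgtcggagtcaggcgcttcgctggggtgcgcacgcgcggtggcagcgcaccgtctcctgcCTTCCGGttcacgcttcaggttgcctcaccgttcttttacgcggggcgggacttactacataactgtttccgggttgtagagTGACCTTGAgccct

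Motifs were searched on both strands: TCAAGGTCA, bound by estrogen-related receptors, the shorter AAGGTCA within it, and CCGGAAG for ETS factors such as GABPA. The Cpt1a window held no match. Cpt1a was among the 27 of 36 enzymes matched to a promoter that had none, so the 3 shown beside it were not typical. That of Cpt2 held CCGGAAG at -13 and -113 from the start, that of Acadm held AAGGTCA at -249, and that of Sdhd held TCAAGGTCA at 36 and CCGGAAG at -46. Among the 36 matched of 41 enzymes, CCGGAAG was found in 7, AAGGTCA in 3 and TCAAGGTCA in 1. Counted by promoter, 17.1%, 7.32% and 2.44% of the 41 promoters of these enzymes held them. Of 32851 promoters in the table, 8.86%, 4.72% and 0.423% held them. A match describes letters in this window and is not a bound site.

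The acyl-CoA dehydrogenases open each round of oxidation, and each takes a range of chain lengths. All 4 were higher in preadipocyte than in progenitor libraries, by a median log2 fold change of 2.12. Acads, for short chains, differed most, at 87.8, 73.3 and 38.2 CPM in preadipocyte libraries, 9.55, 12.1 and 9.44 in progenitor, 12.03, 12.2 and 11.9 in intermediate and 16.5, 16.1 and 15.5 in smooth muscle libraries. Progenitor and intermediate libraries overlapped. Its log2 fold change was 2.68 (SE 0.239) with an edgeR adjusted p of 1.66e-07. Acadl, for long chains, was at 375, 429 and 312 CPM in preadipocyte libraries, 76.1, 74.1 and 70.8 in progenitor, 67.2, 53.5 and 63.5 in intermediate and 67.0, 69.3 and 74.6 in smooth muscle libraries, a log2 fold change of 2.34 (SE 0.140). Acadm, for medium chains, was at 258, 294 and 173 CPM in preadipocyte libraries, 76.6, 64.6 and 64.0 in progenitor, 52.3, 48.5 and 52.2 in intermediate and 72.5, 75.5 and 84.5 in smooth muscle libraries, a log2 fold change of 1.82 (SE 0.168). Acadvl, for very long chains, went from 51.8 ± 2.40 CPM (SD, n = 3) in progenitor to 193 ± 57.5 in preadipocyte libraries. For none of the 4 did a preadipocyte library fall within the range of another population, and for Acadl and Acadm progenitor and smooth muscle libraries overlapped after TMM scaling.

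Hydration, the next dehydrogenation and thiolysis are carried out by 5 of the enzymes, and all 5 were higher in preadipocyte libraries, by 1.72 to 2.28 on the log2 scale against progenitor. Hadh, the dehydrogenase for shorter hydroxyacyl-CoA, was at 632, 831 and 419 CPM in preadipocyte libraries, 135, 145 and 109 in progenitor, 71.7, 63.5 and 67.9 in intermediate and 73.5, 74.1 and 81.3 in smooth muscle libraries. No population overlapped another after TMM scaling. Its log2 fold change was 2.28 (SE 0.199) against progenitor and 3.21 against intermediate libraries, with edgeR adjusted p of 1.29e-07 and 3.49e-09. Hadha, the subunit of the trifunctional protein that hydrates and dehydrogenates long chains, was at 239.8, 256 and 147 CPM in preadipocyte libraries, 68.0, 71.9 and 55.1 in progenitor, 73.3, 71.2 and 69.7 in intermediate and 67.4, 68.9 and 68.7 in smooth muscle libraries. It differed between preadipocyte and progenitor by 1.72 (SE 0.177), while intermediate and smooth muscle libraries each overlapped progenitor. Hadhb, its thiolase partner, went from 93.6 ± 12.8 CPM (SD, n = 3) in progenitor to 381 ± 136 in preadipocyte libraries, and Echs1, the short-chain hydratase, from 84.7 ± 2.57 to 361 ± 76.4 CPM. Acaa2, the mitochondrial thiolase that ends the round, was at 691, 853 and 457 CPM in preadipocyte libraries, 204, 223 and 165 in progenitor, 93.7, 85.6 and 97.8 in intermediate and 97.2, 92.6 and 114 in smooth muscle libraries. The progenitor libraries lay between the preadipocyte libraries and those of both other populations, with no overlap.

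Enzymes for double bonds ranged widely. Eci1 and Eci2 shift a double bond into the position the cycle needs, and Decr1 reduces dienoyl-CoA. Eci2 was at 83.5, 85.1 and 78.0 CPM in preadipocyte libraries, 69.5, 66.1 and 64.6 in progenitor, 55.3, 51.8 and 54.7 in intermediate and 36.1, 40.5 and 42.9 in smooth muscle libraries, and its log2 fold change between preadipocyte and progenitor was 0.30 (SE 0.114), with an edgeR adjusted p of 0.0379 that was lost under 12 of 19 alternatives, among them the fit to these 2 populations alone (adjusted p = 0.0773) and a replicate block (adjusted p = 0.0618). Eci1 went from 48.7 ± 3.92 CPM (SD, n = 3) to 193 ± 25.3 CPM between the same populations. Decr1 was at 151, 170.1 and 114 CPM in preadipocyte libraries, 66.1, 67.6 and 57.2 in progenitor, 56.5, 53.5 and 48.1 in intermediate and 37.1, 39.7 and 37.7 in smooth muscle libraries. For Eci2 and Decr1 the populations did not overlap, with progenitor just above intermediate and smooth muscle lowest after TMM scaling (with library size alone, smooth muscle was 0.05 and 0.02 above intermediate on the log2 scale). All 3 were higher in preadipocyte libraries, over a range of log2 fold changes from 0.30 to 1.98.

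Etfa and Etfb form the flavoprotein that takes electrons from the acyl-CoA dehydrogenases, and Etfdh passes them to ubiquinone. All 3 were higher in preadipocyte than in progenitor libraries by similar log2 fold changes, from 1.97 to 2.04. Etfb was at 33.7, 32.1 and 19.998 CPM in preadipocyte libraries, 5.43, 8.48 and 6.90 in progenitor, 3.48, 3.08 and 4.45 in intermediate and 3.16, 3.63 and 3.53 in smooth muscle libraries. Preadipocyte libraries were highest, progenitor next, and intermediate and smooth muscle libraries overlapped. Its exons overlap those of Gm45233 on the same strand over 58.2% of their bases, so its level is uncertain. Etfa and Etfdh were at 551 ± 115 and 324 ± 105 CPM (SD, n = 3) in preadipocyte and at 139.5 ± 11.2 and 82.8 ± 8.96 in progenitor libraries. Acot2, a mitochondrial thioesterase that frees fatty acid from its CoA, differed by 0.70 (SE 0.181), from 15.4 ± 2.98 to 25.0 ± 4.27 CPM. Its transcript is 95.1% identical to that of Acot1 over 1274 bases, and reads could be split between them.

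The pyruvate dehydrogenase complex feeds the cycle from glucose, and Pdk4 phosphorylates the complex and shuts it down. All 5 genes of this group were higher in preadipocyte libraries. Pdk4 was at 169.8, 185 and 114 CPM in preadipocyte libraries, 24.7, 19.01 and 22.8 in progenitor, 6.95, 9.17 and 7.90 in intermediate and 12.6, 14.2 and 7.35 in smooth muscle libraries. The preadipocyte libraries were highest, progenitor next, and intermediate and smooth muscle libraries overlapped at the bottom. The log2 fold change was 2.82 (SE 0.230) against progenitor and 4.28 (SE 0.251) against intermediate libraries, with edgeR adjusted p of 6.17e-08 and 1.36e-09. Pdha1, the catalytic subunit on the X chromosome that the kinase acts on, differed least in this group, at 195, 302 and 184 CPM in preadipocyte libraries, 119.8, 99.0 and 98.8 in progenitor, 101, 100.4 and 78.7 in intermediate and 69.2, 70.3 and 55.3 in smooth muscle libraries, a log2 fold change of 1.10 (SE 0.182). Progenitor and intermediate libraries overlapped. Its partners Pdhb, Dlat and Dld were higher by 2.01, 2.005 and 2.13 on the log2 scale. Dld, which the oxoglutarate dehydrogenase complex shares, went from 116 ± 3.12 CPM (SD, n = 3) in progenitor to 511 ± 106 in preadipocyte libraries.

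All 16 enzymes of the TCA cycle were higher in preadipocyte than in progenitor libraries, with a median log2 fold change of 1.67, and the enzymes of the isocitrate step ranged from 0.57 to 3.25. Idh3a, the catalytic subunit of the NAD-dependent isocitrate dehydrogenase, was at 1049, 1284 and 837 CPM in preadipocyte libraries, 125, 114 and 93.7 in progenitor, 76.6, 60.1 and 66.1 in intermediate and 70.2, 71.1 and 61.8 in smooth muscle libraries. Preadipocyte libraries stood far above the rest, progenitor next, and intermediate and smooth muscle libraries overlapped. On mm10 it lies on chromosome 9 from 54586334 to 54604661. Its log2 fold change of 3.25 (SE 0.175), or 9.52-fold, with an edgeR adjusted p of 8.39e-10, exceeded that of any other enzyme of the set in this comparison. Its partner subunits Idh3b and Idh3g were higher by 1.81 (SE 0.162) and 1.47 (SE 0.129). Idh2, the NADP-dependent enzyme of the same compartment, was at 590.3, 772 and 476 CPM in preadipocyte libraries, 406, 448 and 383 in progenitor, 406, 343 and 366 in intermediate and 285, 291 and 305 in smooth muscle libraries, with progenitor and intermediate libraries overlapping. It was higher in preadipocyte than in progenitor libraries by 0.57 (SE 0.153), with an edgeR adjusted p of 0.00546.

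Within each library, the ratio of Idh2 to Idh3a counts does not depend on the scaling between libraries. As log2 with 2 added to each count, it was 1.70, 1.97 and 2.03 in progenitor, 2.40, 2.51 and 2.46 in intermediate, and 2.02, 2.03 and 2.30 in smooth muscle libraries. In preadipocyte libraries it was -0.83, -0.73 and -0.82, so it was below 0 in these 3 libraries and in no other. The partner subunits Idh3b and Idh3g stayed below Idh2 in mean CPM there, at 397 and 399 against 613. The counts are not divided by transcript length, so the ratio is read between populations and not as a ratio of molecules. The ratio differed among the 4 populations with p = 0.00013 by an exact permutation test over 369600 assignments of libraries to populations (adjusted p = 0.00039 over 3 ratios). The smallest p the design allows is 6.5e-05. That test asks for any difference among the 4 and does not single out a population or a direction. The ratio was chosen with earlier results of these data known, so its p-value is no independent support.

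**Figure D3:**
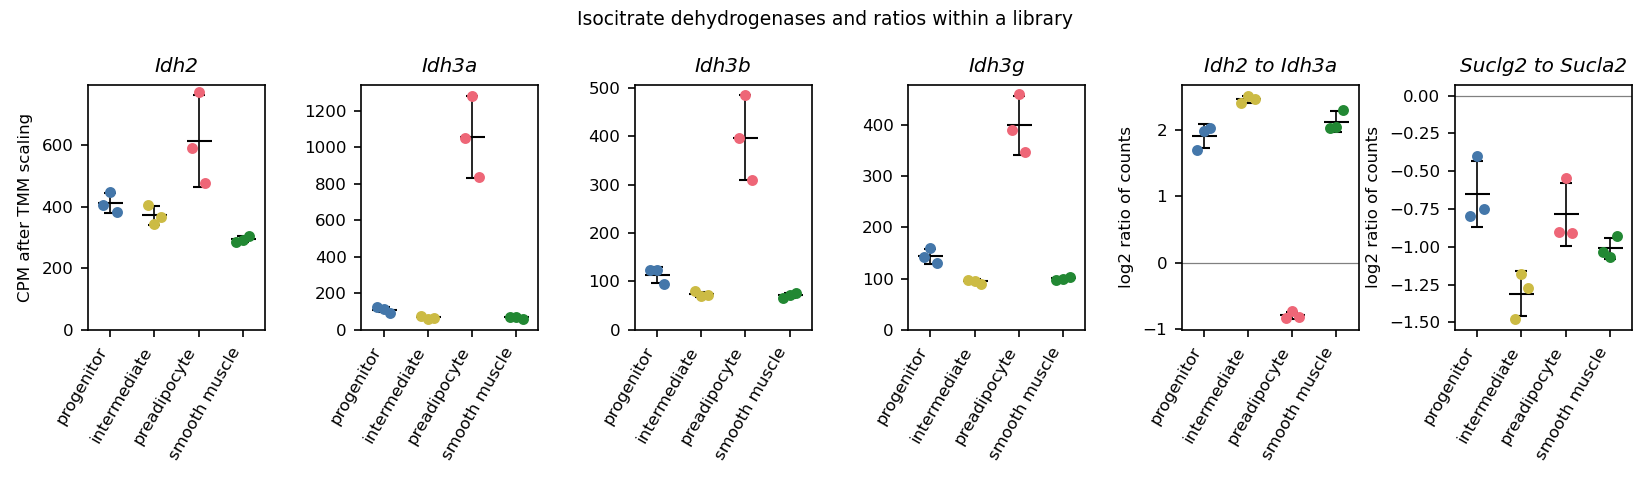
CPM after TMM scaling of Idh2 and the 3 subunits Idh3a, Idh3b and Idh3g (linear axes from 0), and the log2 ratios of counts Idh2 to Idh3a and Suclg2 to Sucla2, in each library with the mean and SD of 3 libraries. The Idh2 to Idh3a ratio is below 0 in preadipocyte libraries and 1.70 or above in all others.

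Cs, which joins acetyl-CoA to oxaloacetate, was at 875, 1316 and 774 CPM in preadipocyte libraries, 215, 212 and 189 in progenitor, 166, 143 and 133 in intermediate and 169, 173 and 163 in smooth muscle libraries. Intermediate and smooth muscle libraries overlapped, both below progenitor after TMM scaling. The log2 fold change between preadipocyte and progenitor was 2.27 (SE 0.174), with an edgeR adjusted p of 3.27e-08. Ogdh and Dlst, parts of the oxoglutarate dehydrogenase complex, were 1.01 and 1.53 higher on the same scale.

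Succinyl-CoA is cleaved by a ligase whose shared subunit Suclg1 pairs with Sucla2, making ATP, or with Suclg2, making GTP. Sucla2 was at 230.0, 264 and 195 CPM in preadipocyte libraries, 108, 97.5 and 96.2 in progenitor, 90.7, 77.0 and 78.9 in intermediate and 81.6, 86.0 and 84.3 in smooth muscle libraries. Suclg2 was at 123.1, 181 and 104 CPM in preadipocyte libraries, 61.9, 73.7 and 57.1 in progenitor, 32.5, 33.9 and 32.5 in intermediate and 39.7, 41.03 and 44.2 in smooth muscle libraries. For Sucla2 intermediate and smooth muscle libraries overlapped, and for Suclg2 the intermediate libraries were the lowest of all. Both were higher in preadipocyte than in progenitor libraries, by 1.19 (SE 0.129) and 1.08 (SE 0.174). Their log2 ratio within a library, Suclg2 to Sucla2, was -0.80, -0.40 and -0.75 in progenitor and -0.90, -0.54 and -0.91 in preadipocyte libraries, where the ranges overlap. It was -1.47, -1.18 and -1.27 in intermediate and -1.04, -1.07 and -0.93 in smooth muscle libraries. The ratio differed among the 4 populations (exact permutation test of any difference, p = 0.00338, adjusted p = 0.00338 over 3 ratios), with intermediate libraries below all others. This ratio too was chosen with earlier results of these data known. A processed pseudogene close to Suclg2 had counts equal to 1.259% of those of Suclg2.

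The 4 subunits of succinate dehydrogenase, which is also part of the respiratory chain, were 1.51 to 2.10 higher on the log2 scale in preadipocyte than in progenitor libraries. Sdhd, a membrane anchor, went from 167 ± 13.9 CPM (SD, n = 3) to 716 ± 110.1, and Sdhb, an iron-sulphur subunit, from 204 ± 17.8 to 584 ± 81.6 CPM. Fh1, fumarate hydratase, went from 75.3 ± 11.8 to 285 ± 68.8 CPM, and Mdh2, the malate dehydrogenase that closes the cycle, from 239.8 ± 35.0 to 894 ± 217 CPM.

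The order of the enzymes within a population, compared per kilobase of transcript, also differed. Idh2 had the highest level per kilobase in progenitor, intermediate and smooth muscle libraries, at 236 ± 18.7, 213 ± 18.2 and 168 ± 5.75 CPM per kilobase (SD, n = 3). In preadipocyte libraries it ranked 8 of 41, at 351 ± 85.6. There Mdh2 ranked 1 at 614 ± 149, Sdhd ranked 2 at 582 ± 89.4 and Sdhb ranked 3 at 511 ± 71.4, but these neighbours do not differ beyond their spread. Idh3a ranked 5 in preadipocyte libraries, at 440 ± 92.9, and 17, 25 and 24 in progenitor, intermediate and smooth muscle libraries. Cpt1a ranked 39 in preadipocyte libraries and 24, 17 and 14 in the others. Ranks describe levels and were not tested.

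Intermediate libraries had less of many of these enzymes than progenitor libraries. Of the 40 tested, 25 were lower, 0 were higher and 15 did not pass the test, where 13.4% of all genes tested were lower and 14.1% higher. The median log2 fold change was -0.52, beside 0.05 over all genes. Fat cell markers were lower too (5 of 8 called, median -1.55), at 79.0 to 90.4 CPM summed against 264 to 350 in progenitor libraries, and red blood cell markers summed to 2.18 to 10.5 against 93.9 to 295. Smooth muscle markers, 6 of 6 called higher, summed to 886 to 1185 against 145 to 158. Their part in the difference was not tested. By edgeR, 0 were higher at an unadjusted p under 0.05 as well, and DESeq2 gave 0 higher and 26 lower. The enzymes above 0 on the log2 scale were Acads, Hadha and Ogdh, at 0.07 to 0.21, with no call. Among those lower, Pdk4 fell furthest at -1.46 (SE 0.237, edgeR adjusted p = 0.000376), then Acaa2 at -1.10 (SE 0.190, adjusted p = 0.000658) and Suclg2 at -0.96 (SE 0.177, adjusted p = 0.00108). By role, 10 of 18 enzymes of fatty acid oxidation were lower, 3 of 5 of the pyruvate dehydrogenase group and 12 of 16 of the TCA cycle. Leaving out any 1 library gave 17 to 32 lower, and the counts over all genes moved too. Without progenitor replicate 1, 17 enzymes and 1933 of 23422 genes tested were lower. Without intermediate replicate 1, 32 enzymes and 4256 of 23441 genes tested were lower.

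Smooth muscle libraries were also below progenitor libraries after TMM scaling, with 27 lower, 1 higher and 12 not called, where 23.6% of all genes were lower and 30.5% higher. This direction rests on the scaling: with library size alone 5 enzymes were lower and 7 higher, where 2015 of 21285 genes tested were lower and 9683 higher. That change of scale moved the median of all genes from 0.09 to 0.53, and the share of higher genes among all called from 56.4% to 82.8%. Relative to the median of all genes, the median of the enzymes was -0.66 on either scale, but -1.38 without a filter on low counts, with 36 lower, and -0.37 with a filter of 5 CPM in 3 libraries. Cpt2 had a log2 fold change of -1.32 (SE 0.221, edgeR adjusted p = 0.000159) and remained lower with library size alone. Etfb had -1.01 (SE 0.243, edgeR adjusted p = 0.00275), a call lost with library size alone (adjusted p = 0.0525). Acads was the enzyme called higher, by 0.63 (SE 0.235, adjusted p = 0.0335), and its call was lost when any of the 9 progenitor, intermediate or smooth muscle libraries was left out. Cpt1a was 0.19 (SE 0.162) with no call, and 0.64 with library size alone (adjusted p = 0.00232).

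**Figure D4:**
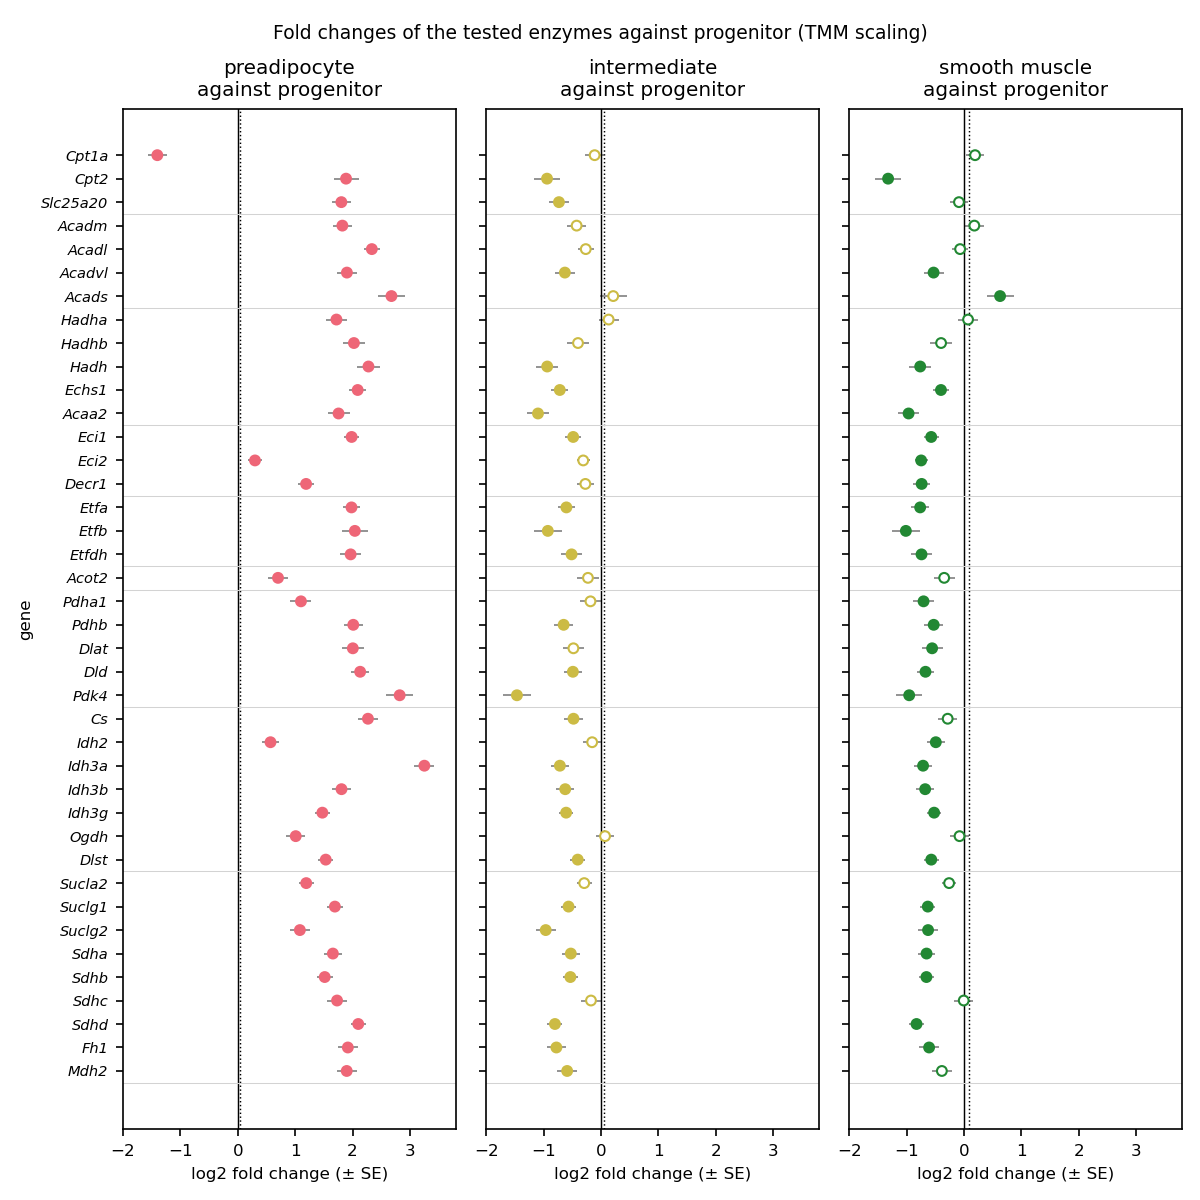
Log2 fold change (± SE) of the 40 tested enzymes against progenitor for preadipocyte, intermediate and smooth muscle libraries; filled points passed an adjusted p under 0.05, and the dotted line is the median of all genes tested. In preadipocyte libraries all but Cpt1a lie to the right of 0, and in intermediate libraries every called enzyme lies to the left. The smooth muscle panel uses TMM scaling. With library size alone 7 were higher and 5 lower, where 9683 and 2015 of 21285 genes tested were.

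In all, 22 enzymes were lower than progenitor in both intermediate and smooth muscle libraries, 3 in intermediate alone and 5 in smooth muscle alone, where 9.60%, 3.84% and 14.0% of all genes tested were, with both comparisons using the same progenitor libraries. For 35 of the 40 tested, the preadipocyte mean was highest, the progenitor mean next and the means of both others below, an order that 17.4% of all genes tested had. Smooth muscle and intermediate libraries differed in few. Against intermediate libraries, smooth muscle libraries had 2 enzymes higher and 3 lower after TMM scaling, where 15.7% of all genes were higher and 13.1% lower. Slc25a20 and Acadm were higher, by 0.64 (SE 0.167, edgeR adjusted p = 0.00833) and 0.60 (SE 0.166, adjusted p = 0.012). Eci2, Decr1 and Pdha1 were lower, with log2 fold changes of -0.44, -0.47 and -0.52. With library size alone 30 were higher and 0 lower, where 9321 of 21285 genes tested were higher and 1133 lower. The median of all genes moved from 0.10 to 0.58 and the share of higher genes among all called from 54.6% to 89.2%. The enzymes' median relative to all genes was -0.11 with TMM, -0.10 with library size alone, -0.42 without a filter on low counts and 0.06 with the filter of 5 CPM. These small counts also rested on which libraries were used. Without smooth muscle replicate 1, 2 or 3 the lower ones numbered 0, 1 and 1, without progenitor replicate 2, intermediate replicate 3 or preadipocyte replicate 3 they numbered 5, and without progenitor replicate 2 or any intermediate library 0 were higher. Neuron and glia markers, 6 genes, summed to 513 to 682 CPM in smooth muscle libraries, 59.8 to 95.5 in preadipocyte, 21.9 to 32.3 in intermediate and 18.6 to 19.97 in progenitor libraries. None of the 6 was at 0 in smooth muscle libraries. There 5 were higher and 1 lower than in progenitor libraries, and 5 higher and 1 lower than in intermediate libraries. The part of these markers' cells in these comparisons was not tested.

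The preadipocyte comparisons kept their counts on either scale. With library size alone 39 were higher and 1 lower against progenitor, while the median of all genes moved from 0.04 to 0.43 and the share of higher genes among all called from 49.2% to 67.6%. Against intermediate libraries that share moved from 45.6% to 64.7%. Relative to all genes, the median of the enzymes was 1.82 against progenitor with TMM and 1.80 with library size alone.

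Other genes of these pathways or close to them, from lists chosen by role, were higher in preadipocyte libraries in part. A list of 21 other genes was set beside mitochondrial fatty acid oxidation, though some act on amino acids or propionyl-CoA. Of these, 16 were higher and 2 lower in preadipocyte than in progenitor libraries, with a median of 1.17. Crat, carnitine acetyltransferase, was higher by 1.51 and Pcca, of propionyl-CoA carboxylase, by 1.52. Peroxisomes shorten very long chains with their own enzymes, and there 11 of 20 were higher and 4 lower, with a median of 0.65. Acox3, an oxidase for branched chains, was lower, at -1.31. Of 26 further genes of the TCA cycle and pyruvate entry 19 were higher and 1 lower, with a median of 0.999. Pcx, pyruvate carboxylase, which refills oxaloacetate, went from 30.0 ± 5.27 to 343 ± 160.0 CPM (SD, n = 3).

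All 20 nuclear subunits of the respiratory chain were higher in preadipocyte than in progenitor libraries, with a median of 1.88, as were all 13 protein genes of the mitochondrial genome, with a median of 1.53. All 12 genes of the outer membrane, import and chaperones were higher, with a median of 1.52, among them Hspd1, the matrix chaperonin, by 2.47. In glycolysis, which runs in the cytosol, 11 of 17 were higher and 1 lower, with a median of 1.37. Of 5 ketone body enzymes, 3 were higher and 1 lower, with a median of 0.59. The medians of these lists lay at or above 0.59, beside 0.04 over all genes, and the enzymes of the set were not tested against them.

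**Figure D5:**
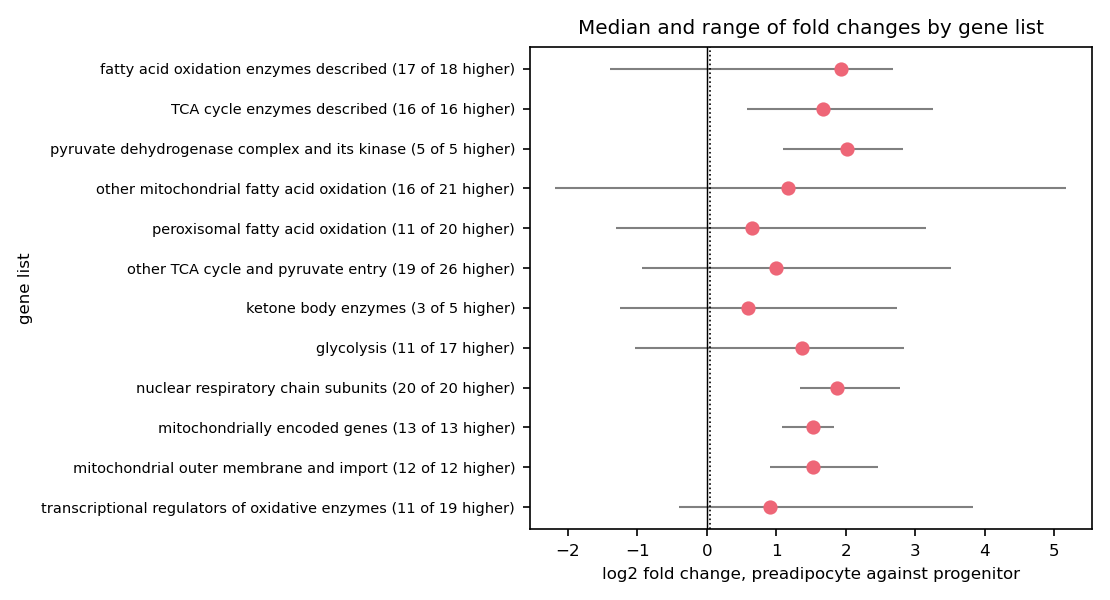
Median (point) and range (line) of log2 fold changes, preadipocyte against progenitor, for each gene list, with the number of tested genes called higher; the dotted line is the median of all genes tested. Respiratory chain subunits, genes of the mitochondrial genome and the TCA cycle enzymes lie wholly above 0, while fatty acid oxidation reaches down to Cpt1a at -1.40.

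Transcriptional regulators of oxidative enzymes, not all of them activators, were measured in the same libraries. Of 19 tested, 11 were higher, 1 was lower and 7 were not called in preadipocyte against progenitor libraries, with a median of 0.91. Ppargc1a, the coactivator known for mitochondrial biogenesis in brown fat, was at 59.7, 63.5 and 35.3 CPM in preadipocyte libraries, 4.66, 3.69 and 2.81 in progenitor, 3.74, 2.33 and 2.18 in intermediate and 10.62, 8.52 and 9.96 in smooth muscle libraries. Preadipocyte libraries were far above all others, and progenitor and intermediate libraries overlapped. Ppara, the nuclear receptor of fatty acid oxidation in liver, went from 3.76 ± 0.722 CPM (SD, n = 3) in progenitor to 23.9 ± 6.28 in preadipocyte libraries, and Esrra, an estrogen-related receptor, from 6.64 ± 1.19 to 25.8 ± 9.63 CPM. In smooth muscle libraries Ppargc1a was also above progenitor, by 1.39 (SE 0.262, edgeR adjusted p = 0.000458). Ucp1, which uncouples respiration in brown fat, was at 145, 135 and 77.5 CPM in preadipocyte libraries, again lowest in replicate 3. It is 1 of 7 brown fat cell markers, of which 6 were higher and 1 was not called in preadipocyte against progenitor libraries. Against intermediate libraries 6 were higher and 1 was lower.

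Some counts are uncertain because annotated genes share bases and the strand of counting is not given in the sources used here. Beside those of Cpt1b and Etfb given above, exons of Acadvl overlap Dvl2 on the other strand over 42.9% and those of Pdha1 overlap Map3k15 over 16.1%. Processed pseudogenes close to Hadhb and Pdhb had counts equal to 3.68% and 2.01% of those genes' own.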

How the data were processed

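RNA of sorted cells was measured in 12 libraries, made with a low-input SMART-Seq v4 kit that selects poly(A) RNA, per the labels' protocols. The submitters' processing notes list STAR 2.5.2a, DESeq2 1.26.0 and mm10. The authors deposited whole-number counts per gene and library, which were used as deposited. Their normalized and log-transformed tables were not used. Not given in the sources used here is how reads were counted, over which annotation and with what strand setting. Names came from the table and GENCODE M21.

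Counts were filtered with filterByExpr, leaving 21285 genes. After TMM scaling, edgeR 4.0.16 in R 4.3.3 fitted 1 model to the 12 libraries with glmQLFit, and glmQLFTest compared the populations. SE is the size of the log2 fold change divided by the square root of F. TMM factors lay between 0.823 and 0.873 for the progenitor and intermediate libraries and between 1.07 and 1.20 for the rest. Ratios of counts within a library had 2 added to each count and were tested by exact permutation. Levels per kilobase used the principal transcript of GENCODE M21. The tests were tried on simulated data.

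The 41 enzymes, the lists, the ratios and the genes given library by library were chosen with earlier results of these data known. Values in every library are given for the 3 largest changes in each direction of each comparison, for 10 enzymes fixed by name and for enzymes called against the majority. Up to 4 genes with the smallest p were taken from each other list. Of 221 entries of those lists, 220 were matched to a gene, and some of these genes are not reported here. No 2 replicates were the same library, with a chi-square per degree of freedom of 3.92 to 70.9 between replicates. A limit of 3 counts covers counting error only, as the reads have no molecular identifiers. Alternatives were other scalings, DESeq2 1.42.0, other filters, fits to the compared populations alone, a replicate block, another offset, and leaving out each library.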

Additional observations from a re-analysis of the deposited data

How the results depend on the processing

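The counts of 39 enzymes higher and 1 lower in preadipocyte libraries held against intermediate and smooth muscle under all 19 other fits except without a filter on low counts, which tested Cpt1b too and gave 40 higher against smooth muscle. Against progenitor 38 or 39 were higher, since Eci2 lost its call in 12 of them, and leaving out a library gave 38 to 39. All 40 differed among the populations throughout, and 41 without a filter. Against progenitor, enzymes lower in intermediate numbered 17 to 32, lower in smooth muscle 24 to 35 and higher in smooth muscle 0 to 1 when a library was left out, and between smooth muscle and intermediate 0 to 3 were higher and 0 to 5 lower. Counts over all genes moved as well. Without smooth muscle replicate 1, 24 enzymes and 4119 of 21895 genes tested were lower in smooth muscle than in progenitor. Without progenitor replicate 2, 35 enzymes and 7386 of 23359 genes were lower there, and without intermediate replicate 1, 35 and 8134 of 23441. With library size alone smooth muscle had 7 higher and 5 lower than progenitor, and 30 higher and 0 lower than intermediate. Of 21285 genes tested, 9683 were higher and 2015 lower than progenitor, and 9321 higher and 1133 lower than intermediate. Without a filter on low counts smooth muscle had 0 higher than progenitor, and 0 higher and 5 lower than intermediate. With a filter of 5 CPM in 3 libraries smooth muscle had 3 higher than progenitor and 4 higher than intermediate, and with these populations alone 5 higher and 6 lower than intermediate. The cause was not tested. Of 240 fold changes, 16 changed sign after a call was gained or lost, each with library size alone and in smooth muscle comparisons, among them Eci2 and Decr1 against intermediate (0.05 and 0.02). The Idh2 to Idh3a and Suclg2 to Sucla2 ratios kept their calls with an offset of 0.5, with a replicate block and without each library, with adjusted p of at most 0.0252. Replicate numbers gave no clear pairing of the libraries (18 correlations of -0.16 to 0.21, of which 6 were over 0.1, and 5 of 12 libraries closest to their own number). The highest were in replicate 3, at 0.21 between preadipocyte and progenitor and 0.19 between preadipocyte and intermediate libraries. This check does not settle whether libraries of the same number share a source. A replicate block gave 38 higher and 1 lower in preadipocyte, 26 lower in intermediate, and 27 lower and 1 higher in smooth muscle than progenitor. Cpt1b had at most 9 counts in a library, and depth and its overlap with another gene were not told apart.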
